A study of Mus musculus with 12 samples.

Results

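The 6 libraries compared here, of 12 in the study, hold RNA of wild-type mouse cells kept on well plates for 28 days in either of 2 media. They were chosen by their labels alone: 3 libraries of cells in M medium, which the labels call differentiation medium, against 3 libraries of cells in P medium, the proliferation medium. All 6 cultures started from primary cells taken out of the muscle layers of the intestine, and no gene was altered in any of them. P medium was DMEM with 10% FBS and 1x ABAM, an antibiotic and antimycotic mix. M medium held no serum. Its base was Advanced DMEM/Ham's F-12 buffered with HEPES at 10 mM and fed with GlutaMAX at 2 mM. To this came the N2 supplement at 1x, the B27 supplement at 1x in its form lacking vitamin A, the antioxidant N-acetylcysteine at 1 mM, Noggin of mouse sequence at 100 ng/mL, R-spondin1 of human sequence at 1 µg/mL, the ROCK inhibitor Y27632 at 10 µM and 1x ABAM. The other 6 libraries were 3 of cells grown in M medium upon scaffolds of electrospun gelatin, and 3 of intestinal muscle strips, the positive control. The design text states 3 biologically independent replicates per condition. The age and sex of the mice, the segment of the intestine and the number of animals behind a replicate were not given. Because the media differed in everything listed but ABAM at once, the share of any 1 component in a difference cannot be told apart.

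The muscle wall of the gut is a mixed tissue. Smooth muscle cells contract, interstitial cells of Cajal pace them, and the enteric nervous system, made of neurons and glia, steers them, with fibroblasts, blood and lymphatic vessels, macrophages and a mesothelial cover around them. Serum brings growth factors, lysophospholipids and hormones to a culture, while Noggin blocks BMP ligands, R-spondin1 raises the response to Wnt ligands and Y27632 blocks ROCK, a kinase that acts on actin and myosin. In bulk RNA of such a culture, more cells of a type and more RNA per cell cannot be told apart.

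Counts assigned to genes ranged from 32784531 to 40935111 in the P plate libraries and from 35684422 to 65356837 in the M plate libraries, so that 3 counts, the most that a count of 0 allows, came to at most 0.0957 CPM. CPM are counts per 1e6 counts of the library total scaled by TMM factors. They serve here to compare 1 gene between libraries. Smooth muscle transcripts were present in every library: Myh11, the heavy chain of smooth muscle myosin, ranged from 367 to 1401 CPM against 11875 ± 959 CPM (SD, n = 3) in the strips. P plate replicate 1 stood apart. Its Pearson correlation of log2 values with the other P plate libraries was 0.949 and 0.955 against 0.982 between those, and 0.988 to 0.991 among the M plate libraries. The summed level of 27 macrophage and myeloid markers was 37448 CPM in P plate replicate 1 and 5196 to 7823 CPM in the other 5 libraries, and that of 17 mesothelial markers was 957 CPM against 4687 to 6433 CPM. Their part in the results below was not tested other than by leaving that library out.

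Of 17700 genes tested with edgeR's quasi-likelihood F test, 2532 were higher in M plate (14.3% of the genes tested) and 1868 were lower (10.6%), 24.9% in either direction, at a Benjamini-Hochberg adjusted p under 0.05. A called gene is one past that threshold. Called or not, 3995 of the 17700 genes had every M plate library above every P plate library, and 3419 had every one below. A lack of overlap was thus common over all genes tested. The rises were the larger. Among called genes 2022 were at least 2-fold higher and 575 at least 2-fold lower, 927 against 85 differed by at least 8-fold, and 337 against 12 by at least 32-fold. The median log2 fold change of M plate over P plate was 2.31 over the higher and -0.68 over the lower genes, and -0.0044 over all genes tested. Genes called higher took 4.32%, 6.15% and 5.0% of the gene counts in the P plate libraries and 17.1%, 17.0% and 15.1% in the M plate libraries. Those called lower went from 22.2%, 21.1% and 24.6% to 12.4%, 12.4% and 13.4%. From a mean under 1 CPM in P plate, 121 called genes reached a mean over 10 CPM in M plate, and 8 genes did the reverse. Without P plate replicate 1 the counts were 2975 higher and 2213 lower. They fell to 1818 and 812 without M plate replicate 1, to 879 lower without M plate replicate 2, to 1140 lower without P plate replicate 3 and to 1178 lower without M plate replicate 3. In all 6 fits that leave out 1 library, 1650 of the higher and 689 of the lower genes were called. Counts of list members in such a fit are to be read beside the counts over all genes in the same fit.

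**Figure D1:**
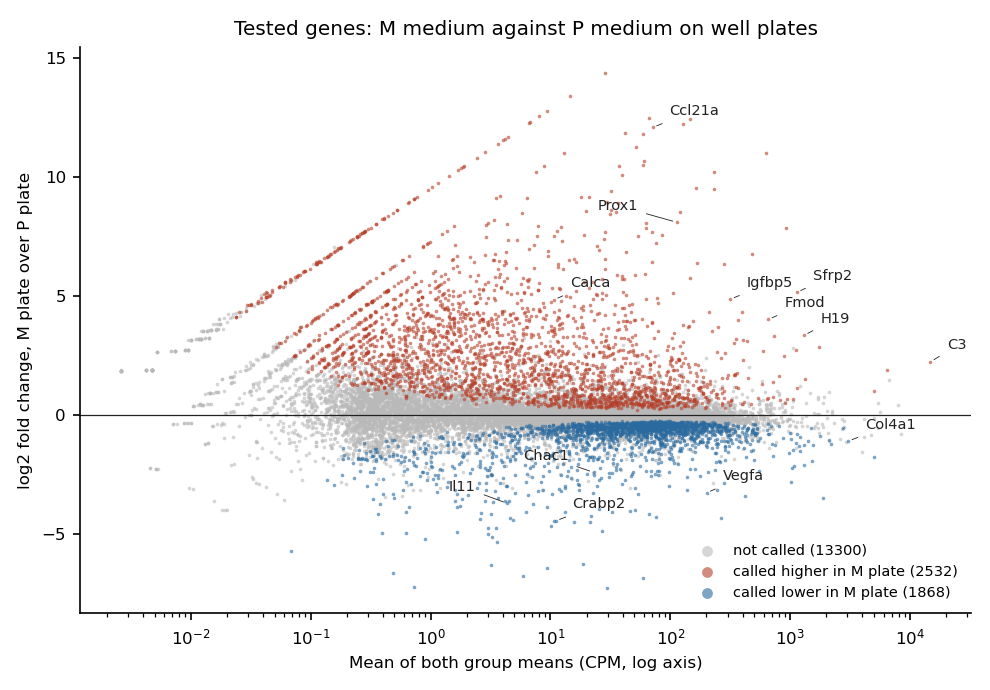
Log2 fold change of M plate over P plate (y axis) against the mean of both group means in CPM (x axis, log scale) for the 17700 genes tested, 1 point per gene. Red points are the 2532 genes called higher, blue points the 1868 called lower and grey points the rest, and the red cloud reaches much farther from 0 than the blue one.

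**Figure D2:**
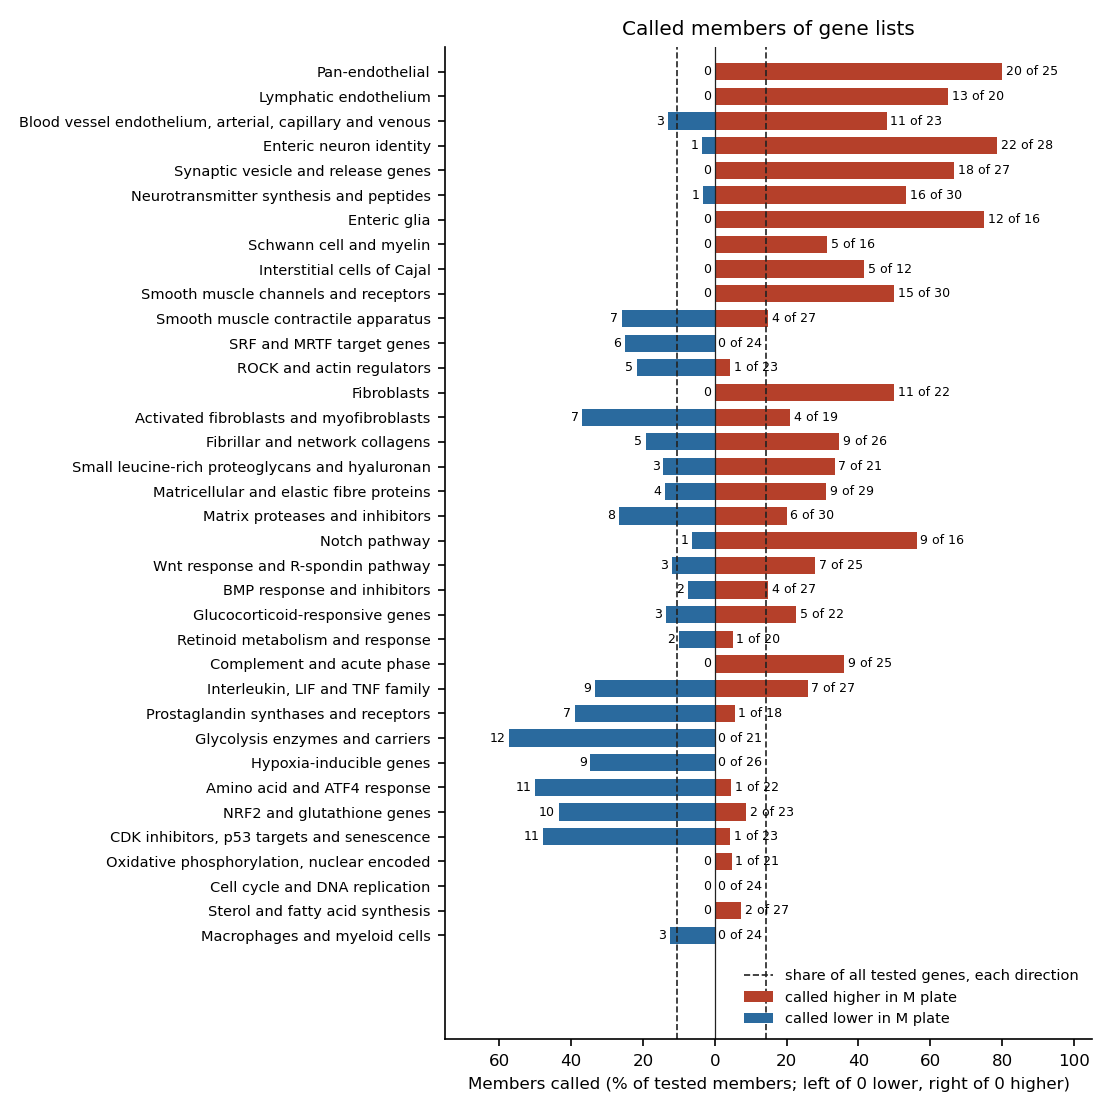
Members of 36 gene lists called higher (red, right of 0) and lower (blue, left of 0) in M plate, as a percent of the members tested, with counts beside the bars. Dashed lines give the percent over all 17700 genes tested (14.3 higher, 10.6 lower), which the endothelial, neuronal and glial bars pass on the right and the glycolysis and ATF4 bars on the left.

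Endothelial transcripts were among the steepest rises, those of lymphatic vessels included. Of 25 pan-endothelial genes tested, 20 were higher and 0 lower, with a median log2 fold change of 7.0, and of 20 lymphatic genes 13 were higher and 0 lower, with a median of 3.53. The list of arterial, capillary and venous genes was split, with 11 of 23 higher, 3 lower and a median of 1.18. Its lower genes included Slc2a1, a glucose carrier that is also in the glycolysis list. Prox1 (ENSMUSG00000010175, chromosome 1, 190118035 to 190170714, GRCm38), the transcription factor that sets lymphatic identity, was at 0.849, 0.707 and 0.893 CPM in the P plate libraries and at 247, 225 and 205 CPM in the M plate libraries (log2 fold change 8.11 ± 0.84 SE, edgeR adjusted p = 0.000114). Lyve1, a hyaluronan receptor of lymphatic endothelium and of some macrophages, went from 16.8, 4.43 and 2.55 CPM to 1710, 2175 and 1629 CPM (7.85 ± 0.99, adjusted p = 0.000333). Its highest P plate value was in replicate 1, the library with the most macrophage transcripts. Mmrn1, a secreted protein of lymphatic endothelium and platelets, went from 0.328, 0.676 and 0.829 CPM to 1378, 1292 and 1088 CPM (11.01 ± 0.97, adjusted p = 5.41e-05). Reln, which lymphatic endothelium also secretes, went from 0.411, 0.584 and 0.925 CPM to 531, 460 and 385 CPM. The groups did not overlap for any of these 4 genes, and in the strips the mean levels were 4.78 CPM for Prox1, 12.1 CPM for Lyve1, 9.90 CPM for Mmrn1 and 4.35 CPM for Reln.

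Receptors and a chemokine of lymphatic vessels were among the higher genes. Flt4, the receptor for VEGF-C and VEGF-D, rose from 19.5, 3.07 and 3.89 CPM to 972, 1126 and 779 CPM (6.76 ± 0.99, edgeR adjusted p = 0.000835). Stab2, a scavenger receptor for hyaluronan, rose from 1.07, 0.461 and 0.191 CPM to 99.2, 129 and 93.2 CPM. Ackr2, a decoy receptor that takes up inflammatory chemokines on lymphatic endothelium, was at 0.0638 to 0.0922 CPM in P plate and at 82.8 to 165 CPM in M plate (10.50 ± 0.96, adjusted p = 6.45e-05). Ccl21a, the chemokine that draws dendritic cells into lymphatic vessels, went from 0, 0.0615 and 0.0319 CPM to 201, 126 and 101 CPM, but it has near-identical copies in the genome and its level is uncertain. Other lymphatic markers did not pass the test. Pdpn was at 56.8, 59.2 and 85.1 CPM in P plate and at 61.4, 59.9 and 57.6 CPM in M plate (-0.17 ± 0.19, adjusted p = 0.543), and Stab1, which macrophages also express, was at 3037, 581 and 185 CPM against 2140, 2109 and 2140 CPM (adjusted p = 0.497).

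Markers of blood vessels were mixed. Gpihbp1, which anchors lipoprotein lipase to capillary endothelium, rose from 0.0547, 0 and 0.0319 CPM to 106, 134 and 112 CPM (11.82 ± 0.96, edgeR adjusted p = 4.01e-05), and Plvap, a protein of the fenestrae of capillaries, from 0.192 to 0.461 CPM to 51.1 to 60.4 CPM. Emcn, an endomucin of capillaries and veins, rose from 0.0274, 0 and 0 CPM to 5.93, 8.37 and 8.24 CPM. By contrast, Vwf, the clotting factor stored in endothelium, was at 7.28, 1.78 and 2.42 CPM in P plate and 1.40, 1.17 and 2.77 CPM in M plate (adjusted p = 0.300). Ackr1 and Selp, which mark venules, were not called either (adjusted p = 0.515 and 0.998). Selp is also a platelet gene and its level in M plate was 14.7, 22.9 and 22.9 CPM. Efnb2, the arterial ephrin, fell from 121, 177 and 226 CPM to 82.0, 58.4 and 60.7 CPM (-1.38 ± 0.23, adjusted p = 0.00188). In P plate Cdh5, a cadherin of endothelium, was at 0.438, 0.307 and 0.383 CPM, far under Efnb2. Which cells gave the Efnb2 transcripts was not tested, so its fall cannot be read as one of arterial endothelium. No test compared the lymphatic with the blood vessel list.

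Vascular growth factors and their receptors took opposite directions by gene. Of 20 genes of the VEGF, angiopoietin and apelin families, 7 were higher and 2 lower (median log2 fold change 0.95). The 2 came to 1 without any 1 library other than P plate replicate 2, and the median ranged from 0.56 to 1.57, the latter without P plate replicate 1. Vegfa, the main ligand for sprouting of blood vessels, fell from 465, 262 and 363 CPM to 28.9, 38.1 and 46.3 CPM (-3.26 ± 0.68, edgeR adjusted p = 0.00638), and no M plate library came near the P plate range. Vegfd, a ligand of Flt4, rose from 47.4, 113 and 89.4 CPM to 545, 467 and 327 CPM (2.42 ± 0.40, adjusted p = 0.00164). Vegfc, the other Flt4 ligand, was at 18.5, 213 and 88.2 CPM and at 321, 296 and 201 CPM, which overlap, and was not called (1.35 ± 0.67, adjusted p = 0.165). Angpt2, an angiopoietin that endothelium secretes, rose from 6.68, 8.79 and 4.46 CPM to 422, 577 and 650 CPM (6.37 ± 0.69, adjusted p = 0.00014), while Angpt1, the partner ligand from mural cells, went from 0.384 ± 0.126 CPM to 3.91 ± 0.149 CPM (SD, n = 3). Their receptor Tek rose from 0.159 to 0.584 CPM to 22.3 to 31.8 CPM. In the Notch pathway 9 of 16 genes were higher and 1 was lower (median 1.52), and the 1 lower came to 0 in the fits that left out replicate 1 of either medium, P plate replicate 3 or M plate replicate 2. Dll4, a Notch ligand of endothelium, went from 0.0547, 0.0307 and 0.0957 CPM to 33.6, 39.5 and 34.9 CPM (9.17 ± 0.82, adjusted p = 5.63e-05). Notch1 went from 36.3, 10.9 and 7.11 CPM to 123, 122 and 110.1 CPM, and Nrarp, a target and inhibitor of Notch, from 0, 0.461 and 0.128 CPM to 14.9, 15.8 and 12.3 CPM.

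**Figure D3:**
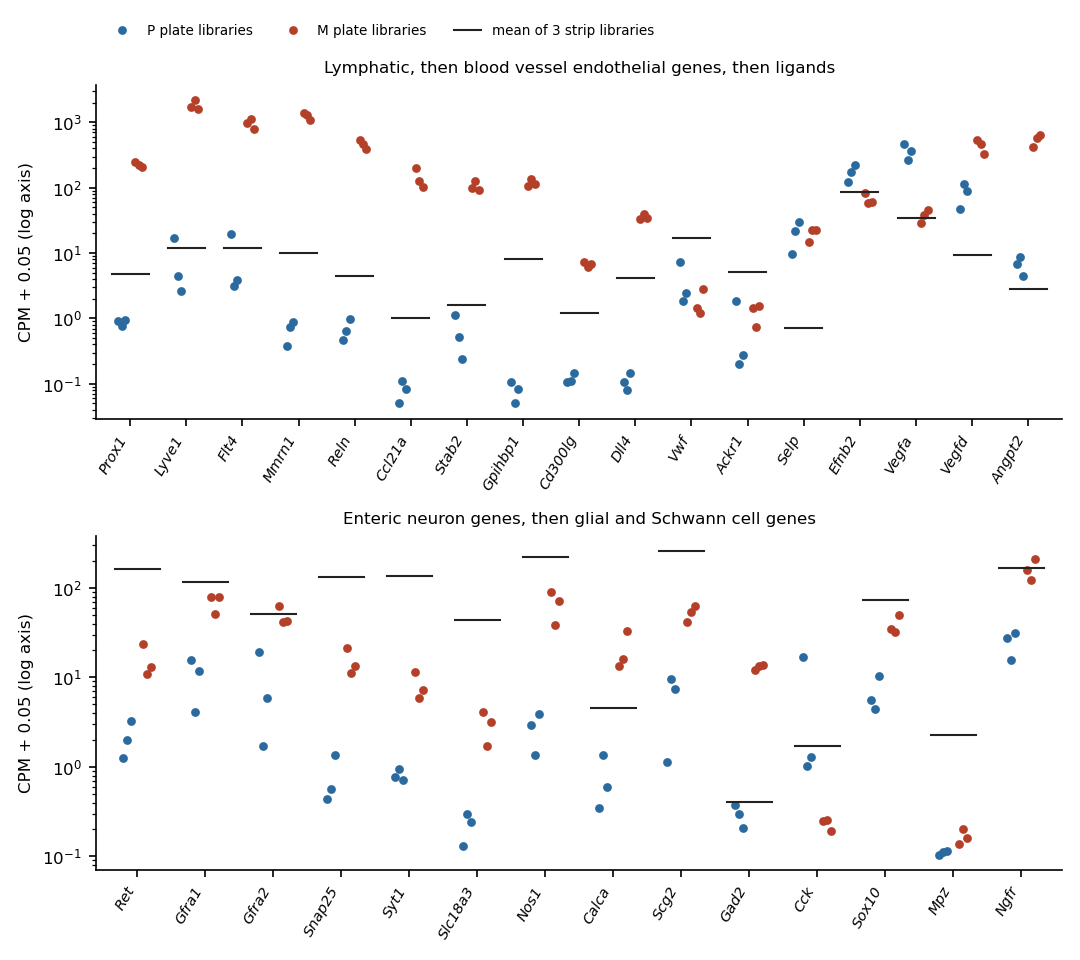
CPM with 0.05 added (y axis, log scale) of endothelial genes and vascular ligands (top) and of neuronal and glial genes (bottom), with 1 blue point per P plate library, 1 red point per M plate library and a bar at the mean of the 3 strip libraries. Prox1, Lyve1 and Mmrn1 in M plate lie above the strips, Snap25 in M plate lies between P plate and the strips, and the Vwf points of both media overlap.

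Many neuronal transcripts were also higher in M plate. Of 28 genes of enteric neuron identity, 22 were higher and 1 was lower (median log2 fold change 2.96). The lower one was Hand2, a transcription factor shared with smooth muscle, at 81.0, 96.3 and 122 CPM against 70.6, 56.8 and 74.6 CPM (adjusted p = 0.0364, with the call lost and values up to 0.133 without any 1 library other than P plate replicate 1). Of 27 synaptic vesicle and release genes, 18 were higher and 0 lower (median 2.31). Snap25, part of the machinery that fuses synaptic vesicles, rose from 0.383, 0.523 and 1.31 CPM to 21.0, 11 and 13.5 CPM (4.38 ± 0.41, edgeR adjusted p = 6.9e-05), with 134 ± 20.1 CPM in the strips. Stmn2, a tubulin-binding protein of growing axons, rose from 1.94, 3.57 and 5.99 CPM to 43.5, 34.7 and 29.4 CPM. In both genes every M plate library was above every P plate library.

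Transmitter genes differed by member. Of 30 genes for transmitter synthesis, transport and peptides, 16 were higher and 1 was lower (median 2.63). Slc18a3, the vesicular acetylcholine transporter, was at 0.0821 to 0.246 CPM in P plate and at 1.67 to 4.07 CPM in M plate (4.09 ± 0.50, edgeR adjusted p = 0.000273). It lies within the Chat gene, and whether reads were assigned by strand was not given. Scg2, a granin of peptide vesicles, rose from 1.09, 9.47 and 7.30 CPM to 41.5, 53.4 and 62.5 CPM (3.14 ± 0.56, adjusted p = 0.00264). Calca, which encodes calcitonin and the peptide CGRP, rose from 0.301, 1.32 and 0.542 CPM to 13.5, 15.8 and 32.7 CPM (4.85 ± 0.70, adjusted p = 0.000784), above the 4.53 ± 1.30 CPM of the strips. Gad2, a GABA-producing enzyme, rose from 0.328, 0.246 and 0.159 CPM to 12, 13.2 and 13.7 CPM (5.70 ± 0.64, adjusted p = 0.000169), against 0.356 ± 0.337 CPM in the strips. Vip, the relaxant peptide, was at 0.712, 3.57 and 13.0 CPM and at 47.7, 32.4 and 25.2 CPM (2.61 ± 0.72, adjusted p = 0.0246), a call lost without P plate replicate 2, M plate replicate 1 or M plate replicate 2, at up to 0.0797. Npy and Ddc, the enzyme that makes dopamine and serotonin, were not called (adjusted p = 0.454 and 0.697), and Th, the first enzyme of catecholamine synthesis, was at or under the floor in both groups.

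Of 16 genes of enteric glia 12 were higher and 0 lower (median 2.21). Sox10, the transcription factor of enteric glia, rose from 5.61, 4.43 and 10.4 CPM to 34.3, 32.1 and 49.3 CPM (2.50 ± 0.41, edgeR adjusted p = 0.00159). Erbb3, the neuregulin receptor of the glial lineage, rose from 7.86 to 9.69 CPM to 27.7 to 37.3 CPM, and Foxd3, a neural crest factor, from 1.38 to 3.44 CPM to 10.2 to 16.1 CPM. Of 16 Schwann cell and myelin genes 5 were higher and 0 lower. Mbp, a major myelin protein that other cells express as well, was at 53.5, 187 and 145 CPM against 142, 178 and 134 CPM (adjusted p = 0.657).

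Several receptors that enteric neurons and their progenitors use for GDNF and neurotrophins rose. Among the ligands, Gdnf and Nrtn did not pass the test, Artn rose and Bdnf fell. Of 21 genes of these families 8 were higher and 1 lower (median 0.85), and 14 were higher without P plate replicate 1. Ret, the signalling receptor, rose from 1.20, 1.97 and 3.19 CPM to 23.6, 10.9 and 13.2 CPM (2.91 ± 0.39, edgeR adjusted p = 0.000464). Its co-receptor Gfra1 rose from 15.8, 4.03 and 11.7 CPM to 78.7, 51.2 and 79.3 CPM (2.73 ± 0.43, adjusted p = 0.00128). Ntrk3, the receptor for neurotrophin-3, rose from 0.274, 0.707 and 0.638 CPM to 15.3, 11.2 and 9.83 CPM (4.50 ± 0.47, adjusted p = 0.000116), and Ngfr from 27.3, 15.6 and 31.0 CPM to 160.3, 123 and 209 CPM. Of the ligands, Gdnf was at 6.57, 1.08 and 3.00 CPM against 5.50, 5.94 and 7.77 CPM (adjusted p = 0.339), and Nrtn was not called (adjusted p = 0.195). Artn, the ligand of Gfra3, was called, at 4.82, 1.38 and 3.00 CPM against 12.5, 8.27 and 13.9 CPM (1.91 ± 0.44, adjusted p = 0.0105).

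Of 30 channels and receptors of smooth muscle 15 were higher and 0 lower (median 1.52). Of 27 contractile genes 4 were higher and 7 lower (median -0.46), and of 24 regulators 2 were higher and 2 lower (median -0.22). Both regulator counts lie under the shares over all genes tested (14.3% and 10.6%). Without P plate replicate 1, 3 regulators were higher and 6 lower, and 0 were higher when M plate replicate 1 or P plate replicate 3 was left out. Pln, which restrains the calcium pump of the sarcoplasmic reticulum, rose from 0, 0.0615 and 0 CPM to 4.84, 8.17 and 5.06 CPM (8.06 ± 0.76, edgeR adjusted p = 7.2e-05), with 47.6 ± 6.33 CPM in the strips. Kcnk3, a background potassium channel, rose from 0.465, 0.369 and 0.797 CPM to 8.88, 5.02 and 9.0 CPM (3.81 ± 0.46, adjusted p = 0.000267). Kcnma1, the large-conductance calcium-activated potassium channel, rose from 6.24, 7.35 and 3.54 CPM to 20.8, 16.1 and 17.1 CPM (1.65 ± 0.24, adjusted p = 0.000838). Chrm3, the muscarinic receptor that drives contraction, rose from 3.34, 2.98 and 2.07 CPM to 13.0, 13.0 and 13.1 CPM, and Adrb3, a relaxing adrenergic receptor, from 0.520 to 1.02 CPM to 2.79 to 5.62 CPM. Cacna1c, the L-type calcium channel, was at 46.6, 40.3 and 52.7 CPM against 59.6, 38.3 and 52.2 CPM (adjusted p = 0.760). The groups overlapped for that gene and not for the 5 named before it.

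Among contractile genes the direction depended on the member. Acta2, an actin of smooth muscle, fell from 3396, 1730 and 4069 CPM to 1486, 920 and 1556 CPM (-1.21 ± 0.37, edgeR adjusted p = 0.0354). That call was lost without any 1 library other than P plate replicate 2, at up to 0.123. Actg2, another such actin, was not called (-0.46 ± 0.66, adjusted p = 0.656). Casq2, a calcium store protein, rose from 0.739, 1.32 and 1.56 CPM to 23.1, 10.4 and 13.5 CPM (3.70 ± 0.40, edgeR adjusted p = 0.000138), and Synpo2, a Z-line and dense body protein, from 89.0, 79.6 and 54.4 CPM to 286, 223 and 254 CPM (1.77 ± 0.27, adjusted p = 0.00112). Nexn, an actin-binding protein, fell from 129, 65.0 and 136 CPM to 43.2, 37.4 and 42.8 CPM (-1.42 ± 0.22, adjusted p = 0.00128). Mylk, the kinase that switches on smooth muscle myosin, was at 587, 599 and 551 CPM against 1182, 825 and 1110.4 CPM, without overlap but not called (0.84 ± 0.28, adjusted p = 0.053). Foxf2, a mesenchymal regulator of the gut wall, fell from 27.1, 34.1 and 45.2 CPM to 10.1, 9.47 and 11.9 CPM (-1.76 ± 0.31, adjusted p = 0.00243). The 7 lower contractile genes came to 4 without P plate replicate 3, M plate replicate 1 or M plate replicate 3 and to 3 without M plate replicate 2.

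Y27632 acts on the ROCK pathway, whose actin signal reaches the genome through SRF and its cofactor MRTF. Of 24 SRF and MRTF target genes 0 were higher and 6 lower (median log2 fold change -0.58), with 1 positive value among the 24. The 6 came to 11 without P plate replicate 2, to 3 without M plate replicate 1 and to 2 without M plate replicate 2. Actn1, an actin cross-linker of stress fibres, fell from 1002, 686 and 1447 CPM to 432, 397 and 495 CPM (-1.24 ± 0.23, edgeR adjusted p = 0.0036). Srf itself was at 101, 112 and 163 CPM against 112, 79.4 and 109.8 CPM (adjusted p = 0.278), and Vcl, an adhesion protein under SRF control, at 468, 1055 and 963 CPM against 599, 602 and 546 CPM (adjusted p = 0.225). The CArG box, the DNA element that SRF binds, was found in a promoter window of 7 of the 20 listed genes with one and of 1.53% of the tested genes with one. The genes are listed because they are known targets of SRF and MRTF, so the share describes the list and is no evidence on these cultures. Of 23 regulators of ROCK and actin 1 was higher and 5 were lower. Rhoc, a small GTPase upstream of ROCK, fell from 339, 267 and 403 CPM to 132, 138 and 163 CPM (-1.22 ± 0.15, adjusted p = 0.000334), and Arhgef2, an exchange factor for such GTPases, from 348, 225 and 274 CPM to 129.8, 138 and 164 CPM (-0.97 ± 0.16, adjusted p = 0.00167). The 5 lower regulators came to 9 without P plate replicate 2, to 2 without M plate replicate 2 and to 3 without P plate replicate 3, M plate replicate 1 or M plate replicate 3.

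Genes around Wnt and BMP signals showed a few large changes rather than a common shift. Of 25 Wnt genes tested 7 were higher and 3 lower (median 0.35), and the 7 came to 3 without M plate replicate 1 or 2 and to 4 without M plate replicate 3. Sfrp2, a secreted modulator of Wnt, rose from 3.23, 137 and 44.4 CPM to 2936, 2198 and 1485 CPM (5.17 ± 1.12, edgeR adjusted p = 0.0079). Nkd1, a feedback inhibitor that Wnt induces, rose from 22.1, 48.4 and 43.7 CPM to 116, 81.3 and 102 CPM (1.39 ± 0.31, adjusted p = 0.00877). Axin2, the target most used as a readout of Wnt, was at 5.45, 24.3 and 19.3 CPM against 41.6, 40.7 and 29.3 CPM, without overlap but not called (1.19 ± 0.43, adjusted p = 0.0677). Dkk2, a Wnt antagonist, fell from 41.9, 30.2 and 44.8 CPM to 10.3, 9.36 and 12.9 CPM (-1.84 ± 0.25, adjusted p = 0.00056). Rnf43, a membrane brake on Wnt receptors on which R-spondins act, was at 1.15 to 4.37 CPM against 1.17 to 2.21 CPM (adjusted p = 0.541).

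Of 27 BMP genes 4 were higher and 2 lower (median -0.07), near the shares over all genes tested (14.3% and 10.6%). The 2 lower came to 4 without P plate replicate 1, to 0 when M plate replicate 2 or P plate replicate 3 was left out and to 1 without each of the other 3 libraries. The direct BMP targets Id1, Id3 and Smad6 were not called: Id1 was at 42.9, 209 and 185 CPM against 136, 107 and 141 CPM (adjusted p = 0.803), and the adjusted p was 0.628 for Id3 and 0.858 for Smad6. Bmp7, a BMP ligand, rose from 0.246, 0.246 and 0.191 CPM to 8.48, 9.16 and 7.74 CPM (5.19 ± 0.32, edgeR adjusted p = 1.04e-05), and Bambi, a decoy receptor, from 8.40, 13.6 and 10.1 CPM to 30.2, 29.5 and 30.2 CPM (1.48 ± 0.26, adjusted p = 0.00245). Bmp4 and Grem1, a secreted BMP antagonist, were not called (adjusted p = 0.973 and 0.362). Grem1 lay between 953 and 1239 CPM in all 6 libraries.

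Some hormone responsive genes changed, in both directions. B27 as sold carries corticosterone. Of 22 glucocorticoid-responsive genes 5 were higher and 3 lower (median 0.26), against 14.3% and 10.6% over all genes tested. Fkbp5, a chaperone that glucocorticoids induce, rose from 14.8, 20.2 and 23.4 CPM to 36.7, 51.7 and 40.7 CPM (1.14 ± 0.24, edgeR adjusted p = 0.00609), and Zbtb16, a transcription factor with the same response, from 0.0821, 0.615 and 0.0638 CPM to 10.9, 18.4 and 8.90 CPM (5.65 ± 0.69, adjusted p = 0.000283). Klf9, another glucocorticoid target that thyroid hormone also induces, fell from 75.0, 157 and 130.5 CPM to 46.5, 52.3 and 44.5 CPM (-1.34 ± 0.24, adjusted p = 0.00258). Tsc22d3 and Per1 were not called (adjusted p = 0.0966 and 0.0732). In the retinoid list, 1 of 20 genes was higher and 2 were lower (median -0.02), with 0 higher and 1 lower without M plate replicate 1 or 2. Both counts of the main fit lie under the shares over all genes tested (14.3% and 10.6%). Crabp2, which carries retinoic acid to its receptor, fell from 13.7, 18.2 and 31.7 CPM to 0.774, 0.888 and 1.23 CPM (-4.44 ± 0.63, adjusted p = 0.000673). The retinoid targets Rarb and Cyp26b1 had adjusted p of 0.0796 and 0.276.

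**Figure D4:**
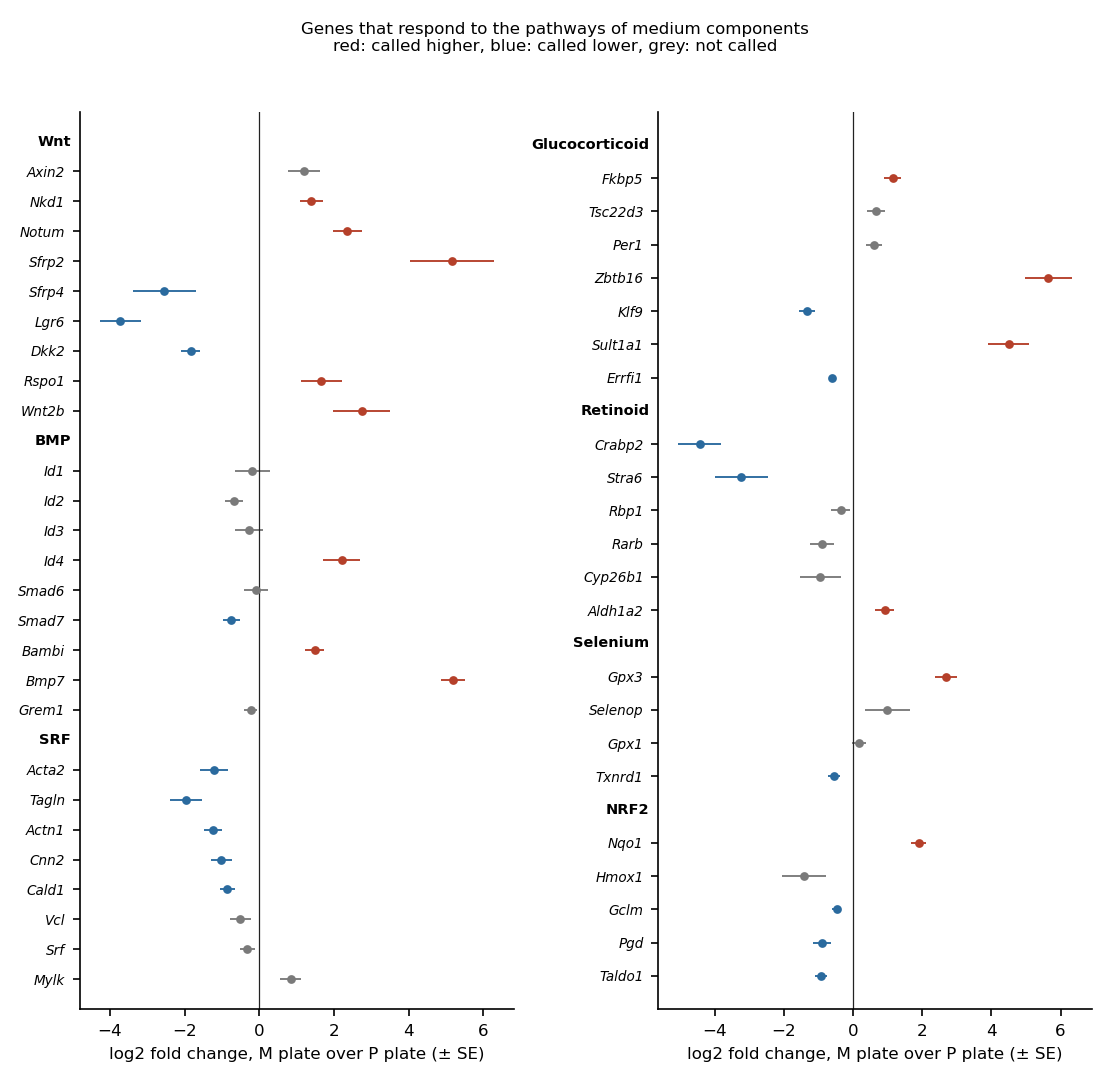
Log2 fold change of M plate over P plate (x axis, point) with its SE (line) for genes of the Wnt, BMP, SRF, glucocorticoid, retinoid, selenium and NRF2 lists. Red points were called higher, blue points lower and grey points neither: Sfrp2, Bmp7 and Zbtb16 lie far to the right, Crabp2 lies far to the left, and Id1, Id3 and Smad6 lie near 0.

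Metal, redox and growth factor supply also differ between serum and N2, which carries insulin, transferrin and selenite. Of 20 selenoprotein genes 2 were higher and 5 lower (median -0.16). The 5 came to 2 without P plate replicate 1, P plate replicate 3 or M plate replicate 1, to 1 without M plate replicate 2 and to 3 without M plate replicate 3. Gpx3, a secreted glutathione peroxidase, rose from 151, 178 and 145 CPM to 851, 1039 and 1169 CPM (2.69 ± 0.32, edgeR adjusted p = 0.000265), while Gpx1, the selenoprotein most sensitive to selenium supply in many cells, was at 169, 299 and 311 CPM against 289.9, 278 and 308 CPM (adjusted p = 0.601). Of 23 NRF2 and glutathione genes 2 were higher and 10 lower (median -0.47). The 10 came to 5 without P plate replicate 1, to 4 without replicate 3 of either medium, to 3 without M plate replicate 2 and to 2 without M plate replicate 1. Nqo1, a quinone reductase often used as an NRF2 readout, went against most of the list, from 4.76, 3.50 and 5.58 CPM to 18.6, 18.4 and 14.5 CPM (1.90 ± 0.21, adjusted p = 0.000163). Taldo1, of the pentose phosphate pathway, fell from 201, 151 and 245 CPM to 97.5, 100.2 and 115 CPM (-0.93 ± 0.16, adjusted p = 0.00243).

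The transferrin gene Trf fell from 84.8, 200.1 and 145 CPM to 61.6, 64.4 and 71.2 CPM (-1.12 ± 0.24, edgeR adjusted p = 0.00793), and the ferrireductase gene Steap4 rose from 126, 114 and 168 CPM to 517, 969.8 and 533 CPM (2.31 ± 0.29, adjusted p = 0.000375). Tfrc, the transferrin receptor, was at 120.4, 33.2 and 65.9 CPM against 47.3, 50.1 and 75.5 CPM (adjusted p = 0.554). Of 20 insulin and IGF genes 4 were higher and 2 lower, against 14.3% and 10.6% over all genes tested. In this list 7 were higher without P plate replicate 2, and 1 was lower when M plate replicate 1, M plate replicate 2 or P plate replicate 3 was left out. Igfbp5, an IGF-binding protein of smooth muscle, rose from 7.86, 21.6 and 33.2 CPM to 898, 541 and 395 CPM (4.87 ± 0.57, adjusted p = 0.000219). Igf1r, the receptor, fell from 142, 109 and 127 CPM to 75.2, 65.3 and 74.7 CPM (-0.81 ± 0.12, adjusted p = 0.00107). Of 27 sterol and fatty acid synthesis genes 2 were higher and 0 lower, 4 were higher without P plate replicate 1, and 1 was higher without replicate 3 of either medium or M plate replicate 1.

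Many genes of glucose use fell. Of 21 glycolytic enzymes and carriers 12 were lower, 0 higher and 9 not called (median -1.49), with 3 positive values among the 21, and 9 to 13 were lower without any 1 library. Hk2, the hexokinase that starts glycolysis, fell from 173, 74.1 and 98.3 CPM to 19.4, 23.4 and 26.0 CPM (-2.33 ± 0.53, edgeR adjusted p = 0.0103). Pkm, which makes pyruvate, fell from 1565, 1207 and 1631 CPM to 381, 578 and 502 CPM (-1.59 ± 0.31, adjusted p = 0.00474). Ldha, which turns pyruvate into lactate, fell from 1108, 959.6 and 1213 CPM to 282, 415 and 314 CPM (-1.70 ± 0.34, adjusted p = 0.00482). Slc16a3, the exporter of lactate, fell from 283, 192 and 262 CPM to 19.9, 38.5 and 25.1 CPM (-3.14 ± 0.81, adjusted p = 0.0179, and up to 0.0752 without M plate replicate 1 or 3). The groups did not overlap for any of these 4 genes. Gapdh, Pgk1, Pgam1 and Eno1 were lower as well, at -1.55 to -1.91, but they have many processed copies in the genome and reads that map to several places were not counted, so their levels are uncertain. The reads left uncounted for that reason made up 38.7% to 46.7% of all in the 6 libraries.

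Of 26 hypoxia-inducible genes 9 were lower, 0 higher and 17 not called (median -1.03), with 5 positive values. The 9 came to 5 without P plate replicate 3, to 4 without M plate replicate 2 and to 3 without M plate replicate 1 or 3. Over all genes tested the lower count also fell in these fits, from 1868 to 1140, 879, 812 and 1178 in that order. Bnip3, a mitophagy receptor, fell from 67.3, 44.7 and 47.4 CPM to 7.85, 11 and 7.14 CPM (-2.62 ± 0.69, edgeR adjusted p = 0.0203, and up to 0.0765 without any 1 M plate library). Ndrg1, another gene that hypoxia induces, was at 207, 1040.3 and 585 CPM against 602, 729 and 690.1 CPM (adjusted p = 0.873), and Hif1a, which encodes the oxygen-regulated factor, at 1026, 332 and 596 CPM against 304, 423 and 377 CPM (adjusted p = 0.112). The factor HIF binds DNA at a core of ACGTG. RefSeq promoter windows on GRCm38.p6, from 250 bases before to 50 after a start, were searched for ACGTG on both strands, with overlapping matches merged. It was found for 26 of the 38 glycolysis and hypoxia genes with a window (68.4%), for 13 of the 18 of them called lower (72.2%), and for 27.6% of the 12744 tested genes with a window. Many of these genes are listed because they are known targets of HIF, so the share describes the lists and is no evidence on these cultures. The 4 windows below belong to genes of glucose uptake, lactate production, lactate export and mitophagy that fell, and the capitals mark ACGTG or its reverse complement. They lie at chr4:119108495-119108794 (Slc2a1, plus strand), chr7:46845554-46845853 (Ldha, plus), chr11:120948817-120949116 (Slc16a3, plus) and chr7:138909457-138909756 (Bnip3, minus).
Slc2a1: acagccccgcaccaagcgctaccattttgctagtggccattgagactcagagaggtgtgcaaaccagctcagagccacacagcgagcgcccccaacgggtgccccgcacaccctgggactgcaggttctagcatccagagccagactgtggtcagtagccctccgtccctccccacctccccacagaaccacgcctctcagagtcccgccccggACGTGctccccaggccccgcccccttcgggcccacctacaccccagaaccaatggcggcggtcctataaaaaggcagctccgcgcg
Ldha: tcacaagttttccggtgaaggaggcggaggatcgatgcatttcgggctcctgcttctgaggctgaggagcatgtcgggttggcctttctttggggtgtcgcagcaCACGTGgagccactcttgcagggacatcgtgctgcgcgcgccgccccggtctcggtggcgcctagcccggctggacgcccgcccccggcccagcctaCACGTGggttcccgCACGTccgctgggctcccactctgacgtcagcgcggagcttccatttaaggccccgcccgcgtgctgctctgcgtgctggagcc
Slc16a3: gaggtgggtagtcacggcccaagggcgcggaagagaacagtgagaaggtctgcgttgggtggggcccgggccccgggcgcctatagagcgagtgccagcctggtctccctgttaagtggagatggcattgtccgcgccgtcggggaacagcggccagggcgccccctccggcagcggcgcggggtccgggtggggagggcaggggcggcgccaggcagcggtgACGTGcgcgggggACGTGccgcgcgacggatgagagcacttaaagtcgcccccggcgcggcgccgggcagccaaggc
Bnip3: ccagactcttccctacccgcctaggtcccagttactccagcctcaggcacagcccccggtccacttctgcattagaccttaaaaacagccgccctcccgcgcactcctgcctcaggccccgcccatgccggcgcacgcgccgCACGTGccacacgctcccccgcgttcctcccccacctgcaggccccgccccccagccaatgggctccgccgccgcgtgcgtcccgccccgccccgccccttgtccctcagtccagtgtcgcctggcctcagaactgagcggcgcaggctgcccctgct

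Genes of respiration and of cell division mostly did not pass the test. Of 21 nuclear genes of oxidative phosphorylation 1 was higher and 0 lower (median -0.08), and of 24 cell cycle genes 0 were higher and 0 lower (median 0.08), with 5 higher without P plate replicate 3 and 3 lower without P plate replicate 2. The higher one was Ppargc1a, a coactivator that drives mitochondrial genes, at 0.575, 1.72 and 0.701 CPM against 5.33, 6.19 and 6.51 CPM (2.59 ± 0.48, edgeR adjusted p = 0.0033). Mki67, present only in cycling cells, was at 53.6, 21.5 and 67.2 CPM in the proliferation medium and at 62.6, 56.8 and 50.0 CPM in the differentiation medium (0.25 ± 0.33, adjusted p = 0.615). Of the inhibitors of the cycle and p53 targets 1 of 23 was higher and 11 were lower (median -0.70), and the 11 came to 7 without P plate replicate 1, P plate replicate 3 or M plate replicate 1, to 5 without M plate replicate 2 and to 6 without M plate replicate 3. Mdm2, the ligase that p53 induces against itself, fell from 185, 89.1 and 128 CPM to 61.4, 67.6 and 64.9 CPM (-1.05 ± 0.24, adjusted p = 0.00931). The higher one, Cdkn1c, an imprinted inhibitor of cyclin-dependent kinases, rose from 29.4, 12 and 5.90 CPM to 65.8, 53.1 and 50.3 CPM (1.84 ± 0.45, adjusted p = 0.0141).

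ATF4 switches on genes of the amino acid response when amino acids run short or proteins misfold. Of 22 such genes 11 were lower, 1 was higher and 10 were not called (median -1.02), and the 11 came to 7 without M plate replicate 1 or 2. Atf4 itself fell from 461, 342 and 421 CPM to 189, 187 and 196 CPM (-1.10 ± 0.14, edgeR adjusted p = 0.000443). Chac1, which breaks down glutathione, fell from 28.5, 45.2 and 41.9 CPM to 6.79, 6.45 and 8.59 CPM (-2.40 ± 0.28, adjusted p = 0.000206). Asns, which makes asparagine, fell from 141, 72.1 and 139 CPM to 37.4, 34.3 and 46.5 CPM (-1.57 ± 0.29, adjusted p = 0.00349), and Mthfd2, of the mitochondrial folate cycle, from 93.0, 47.2 and 86.4 CPM to 19, 17.6 and 25.0 CPM (-1.88 ± 0.34, adjusted p = 0.00279). Trib3, an inhibitor of ATF4, was not called (adjusted p = 0.271). ATF4 and its partners bind an element with the letters TGATGNAA. It was found in a window of 7 of the 19 listed genes with one (36.8%), of 2 of the 10 called lower, and of 2.91% of the tested genes with a window. Many of the listed genes are known targets of ATF4, so the share describes the list and is no evidence on these cultures. The 2 called lower with the element were Chac1 and Asns, at chr2:119350992-119351291 (plus) and chr6:7693160-7693459 (minus), and the capitals mark the element or its reverse complement.
Chac1: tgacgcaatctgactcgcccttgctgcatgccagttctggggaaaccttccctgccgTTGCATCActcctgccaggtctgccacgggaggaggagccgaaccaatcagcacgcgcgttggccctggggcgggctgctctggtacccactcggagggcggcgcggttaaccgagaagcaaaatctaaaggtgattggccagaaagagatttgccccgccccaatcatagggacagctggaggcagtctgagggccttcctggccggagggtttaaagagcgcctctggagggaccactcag
Asns: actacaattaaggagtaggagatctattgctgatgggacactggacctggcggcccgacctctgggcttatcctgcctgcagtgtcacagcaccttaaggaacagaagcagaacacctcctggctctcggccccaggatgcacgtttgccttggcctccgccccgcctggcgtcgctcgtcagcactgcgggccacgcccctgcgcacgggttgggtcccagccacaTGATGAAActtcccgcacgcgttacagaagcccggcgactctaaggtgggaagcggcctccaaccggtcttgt

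Both windows hold the element once, and no match in the other windows says only that these letters were not there.

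**Figure D5:**
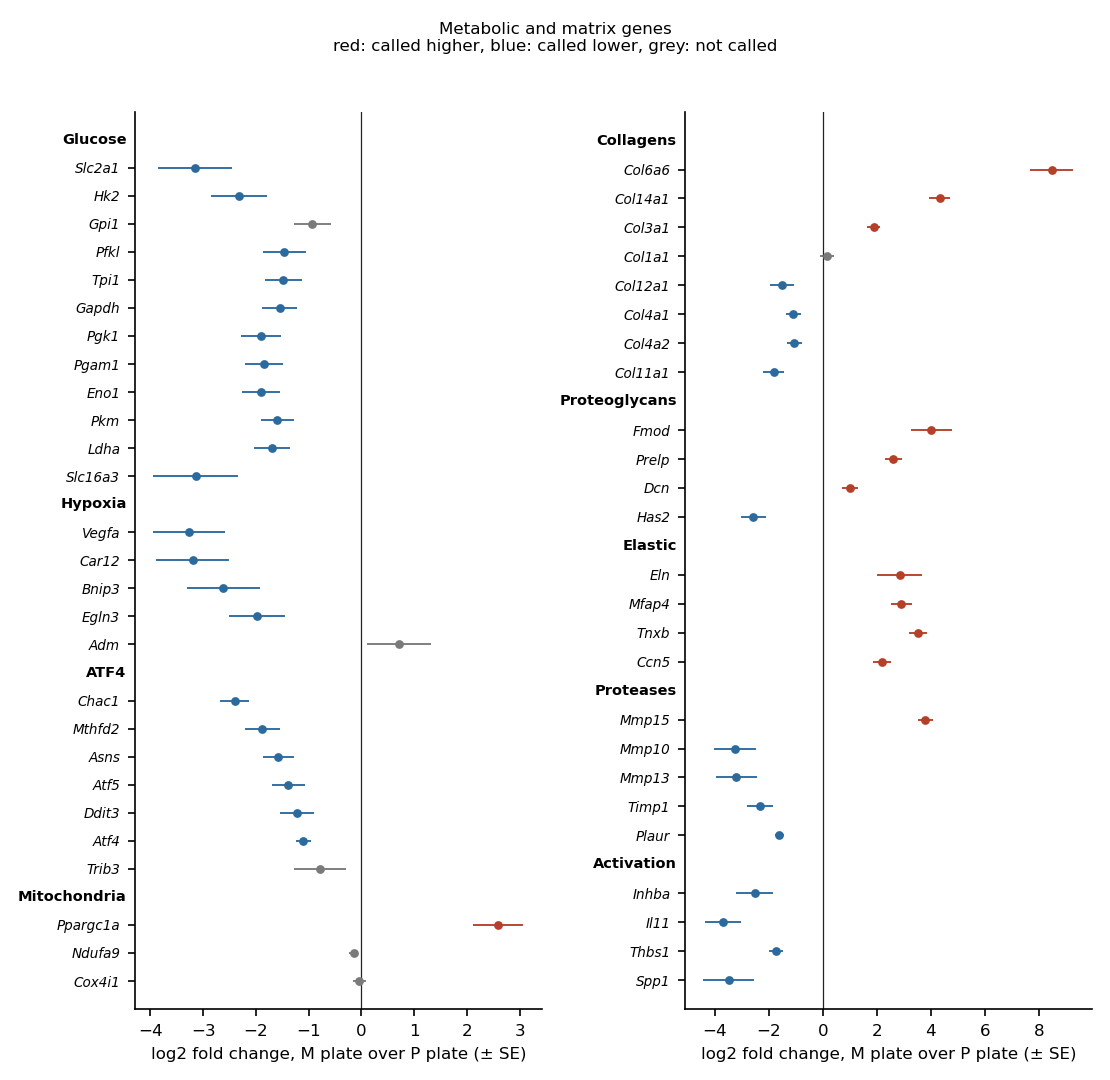
Log2 fold change of M plate over P plate (x axis, point) with its SE (line) for metabolic genes (left) and genes of the extracellular matrix and its activation (right). Red points were called higher, blue points lower and grey points neither: the glycolysis genes lie left of 0, while collagens lie on both sides, from Col6a6 at 8.48 to Col11a1 at -1.83.

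Genes of the extracellular matrix went both ways. Of 26 collagen genes 9 were higher and 5 lower (median 0.37). The 9 higher were the same number without any 1 library, and the 5 lower came to 9 without P plate replicate 1 and to 2 without P plate replicate 3, M plate replicate 1 or M plate replicate 2. Col3a1, a fibrillar collagen of soft tissue, rose from 2572, 2403 and 3284 CPM to 12574, 8654 and 9298 CPM (1.89 ± 0.24, edgeR adjusted p = 0.000403), while Col1a1 was at 5576, 4260.5 and 6011 CPM against 5219, 5575 and 6838 CPM (0.15 ± 0.26, adjusted p = 0.701). Col14a1, which sits on fibrils, rose from 58.5, 32.6 and 21.0 CPM to 864, 714 and 663 CPM (4.32 ± 0.41, adjusted p = 7.07e-05). Col18a1, a basement membrane collagen, rose from 54.5, 106 and 111 CPM to 805, 725 and 820.3 CPM (3.11 ± 0.27, adjusted p = 4.83e-05). Col6a5 had no counts in P plate and was at 8.22, 9.16 and 7.86 CPM in M plate, which is at least 279-fold higher than 3 counts summed over the 3 P plate libraries would give. Col11a1, which nucleates fibrils, fell from 39.9, 28.1 and 46.5 CPM to 9.17, 9.39 and 13.6 CPM (-1.83 ± 0.40, adjusted p = 0.00823). The groups overlapped for Col1a1 and for none of the others named.

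Of 21 genes of small leucine-rich proteoglycans, other proteoglycans and hyaluronan 7 were higher and 3 lower (median 1.09). Fmod, which regulates fibril width, rose from 10.6, 154 and 63.7 CPM to 1466, 1310.0 and 926 CPM (4.02 ± 0.75, edgeR adjusted p = 0.0036), and Hapln1, a link protein of hyaluronan, had no counts in P plate and was at 4.41, 6.78 and 3.33 CPM in M plate, at least 154-fold higher. Has2, which makes hyaluronan, fell from 24.5, 5.47 and 14.3 CPM to 2.09, 2.94 and 2.37 CPM (-2.58 ± 0.47, adjusted p = 0.0032). Of 29 matricellular and elastic fibre genes 9 were higher and 4 lower (median 0.30). Ccn5 and Ccn3, relatives of CCN2, rose, Ccn5 from 42.9, 43.0 and 50.9 CPM to 209.6, 206 and 214 CPM (2.20 ± 0.33, adjusted p = 0.001). Ccn2 itself fell from 1908, 984 and 2231 CPM to 351, 323 and 439 CPM (-2.20 ± 0.35, adjusted p = 0.0014). Tnxb, a tenascin of loose connective tissue, rose from 17.8, 12.8 and 7.24 CPM to 199.6, 110.0 and 128 CPM (3.53 ± 0.33, adjusted p = 6.72e-05). Thbs1, which activates latent TGF-beta, fell from 8280.1, 7033 and 7857 CPM to 2208, 2126 and 2587 CPM (-1.74 ± 0.25, adjusted p = 0.000691). Of 30 proteases and inhibitors 6 were higher and 8 lower, and the 8 came to 4 without M plate replicate 1 and to 5 without M plate replicate 2. Plaur, the receptor for urokinase, fell from 71.7, 65.0 and 80.6 CPM to 21.7, 25.2 and 24.3 CPM (-1.61 ± 0.17, adjusted p = 0.00012), and Adamts1, a protease of versican, rose from 102, 153 and 159 CPM to 399, 388 and 423 CPM (1.55 ± 0.22, adjusted p = 0.000651).

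Of 18 prostaglandin synthases, receptors and related genes 7 were lower, 1 higher and 10 not called (median -0.35). The 1 higher came to 3 without P plate replicate 1, to 2 without P plate replicate 2 and to 0 without any 1 of the other 4 libraries. Pla2g4a, which frees arachidonic acid, fell from 271, 198 and 243 CPM to 72.8, 92.6 and 77.2 CPM (-1.55 ± 0.22, edgeR adjusted p = 0.000629). Ptgs1, the constitutive cyclooxygenase, fell from 295, 307 and 440.3 CPM to 56.5, 67.6 and 75.7 CPM (-2.38 ± 0.21, adjusted p = 5.51e-05). Ptger2, a receptor for prostaglandin E2, fell from 16.2, 8.33 and 10.3 CPM to 1.81, 2.46 and 3.68 CPM (-2.12 ± 0.41, adjusted p = 0.00413). For these 3 genes no M plate library reached the lowest P plate library. The 1 higher gene was Ptgfr, a receptor for another prostaglandin (edgeR adjusted p = 0.0318). In the interleukin, LIF and TNF families 7 of 27 genes were higher and 9 lower (median -0.96). The median was -0.21 without P plate replicate 1, and the 7 came to 4 without M plate replicate 1 or 2. Il33, an alarmin held in stromal nuclei, rose from 18.7, 16.0 and 13.3 CPM to 83.7, 90.5 and 94.4 CPM (2.48 ± 0.24, adjusted p = 8.34e-05), while its receptor Il1rl1 fell from 11.2, 12.8 and 28.2 CPM to 1.63, 1.07 and 0.896 CPM (-3.87 ± 0.41, adjusted p = 0.00012). Il11, a fibroblast cytokine that TGF-beta induces, fell from 14.4, 1.78 and 8.19 CPM to 0.745, 0.558 and 0.566 CPM (-3.71 ± 0.67, adjusted p = 0.00303).

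Of 25 complement and acute phase genes 9 were higher and 0 lower (median 0.51), and the median was 0.97 without P plate replicate 1. C3, the hub of complement, went from 2224, 8599 and 4649 CPM to 21232, 29731 and 22051 CPM (2.24 ± 0.50, edgeR adjusted p = 0.00877). Cfb, which forms the alternative convertase with C3, rose from 0.520, 1.26 and 1.75 CPM to 57.7, 98.3 and 54.1 CPM (5.90 ± 0.44, adjusted p = 2.82e-05), and C4b from 33.5, 143 and 49.7 CPM to 667, 597 and 562 CPM. Ptx3, a soluble pattern receptor, rose from 8.49, 3.60 and 5.42 CPM to 161, 235 and 217 CPM (5.13 ± 0.48, adjusted p = 7.07e-05). Of 27 genes of the interferon response and MHC class I, 1 was higher and 0 lower, 4 were higher without P plate replicate 1, and 0 were without P plate replicate 3 or any 1 M plate library. Ligands of the EGF receptor went both ways. Hbegf fell from 30.9, 88.9 and 63.4 CPM to 4.61, 2.77 and 3.68 CPM (-4.05 ± 0.38, adjusted p = 7.2e-05), Tgfa rose from 2.44, 0.984 and 0.829 CPM to 5.96, 4.72 and 5.25 CPM (1.90 ± 0.41, adjusted p = 0.00797), and the receptor Egfr fell from 294, 419 and 463 CPM to 176, 246 and 206 CPM (-0.90 ± 0.19, adjusted p = 0.0074). In their family of FGF, EGF and PDGF genes 7 of 28 were higher and 3 lower, against 14.3% and 10.6% over all genes tested. Without P plate replicate 1, 11 were higher.

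TGF-beta genes went both ways, with 6 of 20 higher and 6 lower (median -0.21), the 6 lower coming to 3 without replicate 3 of either medium and to 2 without M plate replicate 1 or 2. Eng, a co-receptor on endothelium, rose from 80.3, 17.7 and 32.9 CPM to 539, 699 and 832 CPM (3.98 ± 0.53, edgeR adjusted p = 0.000463), and Gdf10, a ligand of the family, from 0.821, 1.26 and 2.10 CPM to 43.0, 56.0 and 41.5 CPM (5.08 ± 0.53, adjusted p = 0.000113). Smad3, which carries the signal to the nucleus, fell from 119.8, 110.4 and 116 CPM to 48.4, 70.3 and 70.0 CPM (-0.87 ± 0.17, adjusted p = 0.00463).

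Counts over the macrophage and mesothelial lists moved with P plate replicate 1. Of 24 macrophage and myeloid genes 0 were higher and 3 lower (median -0.75), and 4 were higher without that library, where the median was 0.45. The 3 lower came to 1 without M plate replicate 1 or 2. Csf1r, the receptor that macrophages need to live, was at 776, 295 and 79.6 CPM against 349, 232 and 234 CPM (adjusted p = 0.584). Of 7 MHC class II genes 4 were higher and 1 was lower, as they were without P plate replicate 1, and 0 were lower without any 1 of the other 5 libraries. Cd74, the chain that guides class II molecules, rose from 1.86, 2.58 and 0.829 CPM to 38.8, 77.9 and 39.1 CPM (4.88 ± 0.67, edgeR adjusted p = 0.000563), and Ciita, the switch for class II genes, from 0.0319 to 0.0922 CPM to 0.550 to 0.761 CPM (3.33 ± 0.67, adjusted p = 0.00524). H2-Ab1, a class II chain itself, was at 15.7, 8.95 and 12.7 CPM against 5.04, 6.55 and 4.40 CPM (adjusted p = 0.297). Of 16 mesothelial genes 4 were higher and 1 lower (median 0.26). Without P plate replicate 1 the median was -0.25 and 6 were lower, 0 were lower without any 1 of the other 5 libraries, and the higher ones came to 2 without M plate replicate 2 or P plate replicate 3. Upk3b, a surface protein of mesothelium, was at 166, 1399 and 1013 CPM against 1045, 952 and 807 CPM (adjusted p = 0.897), and its low value was in P plate replicate 1.

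Some genes of positional identity and some imprinted growth genes rose steeply. Of 26 Hox genes 5 were higher and 2 lower (median 0.04), against 14.3% and 10.6% over all genes tested. The 5 came to 3 without M plate replicate 1. The members with the largest rises were neighbours in the Hoxd cluster on chromosome 2. Hoxd10 (74691924 to 74695105, GRCm38) had no counts in P plate and was at 6.99, 6.42 and 8.40 CPM in M plate, at least 250.3-fold higher, against 0.0938 ± 0.0192 CPM in the strips. Hoxd9 (74697727 to 74700208) rose from 0.438, 0.984 and 1.18 CPM to 26.5, 33.1 and 36.1 CPM (5.21 ± 0.68, edgeR adjusted p = 0.000442), against 0.455 ± 0.248 CPM in the strips. Hoxd8 (74704615 to 74707933) rose from 9.22, 23.2 and 21.8 CPM to 48.3, 50.4 and 49.9 CPM (1.46 ± 0.34, adjusted p = 0.0108). The spans given for these genes do not overlap, but the annotation used for counting was not given. Of 20 imprinted growth genes 8 were higher and 0 lower (median 0.90). H19, a noncoding RNA of growing tissue, rose from 166, 292 and 238 CPM to 1944, 2497 and 2681 CPM (3.36 ± 0.29, adjusted p = 4.72e-05), while its neighbour Igf2 was at 179, 832 and 530.4 CPM against 926, 956 and 1261 CPM, without overlap but not called (1.03 ± 0.43, adjusted p = 0.105). Mest, expressed from the paternal allele, rose from 1.67, 1.41 and 1.37 CPM to 70.9, 96.9 and 65.7 CPM (5.71 ± 0.20, adjusted p = 5.48e-07).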

How the data were processed

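Per the labels' protocols, Qiashredder and RNeasy gave the RNA, and libraries came from the TruSeq RNA Library Prep Kit v2. Raw counts were what the authors deposited, for Ensembl genes, as whole numbers, in 1 table whose columns are the 12 samples. Per the submitters' processing notes, STAR 2.6.0 and the builds GRCm38 and mm10 were used. The sources used here do not name the counting program, annotation, strand setting or read layout, nor how the 2 technical replicates of a sample were joined. Library sizes and tests leave the 5 summary entries out. In the 6 compared libraries 2.57% to 3.93% of the entries counted, summary entries included, fell in no feature, and 38.7% to 46.7% had no unique alignment. Of 52550 genes 52403 had a symbol in GENCODE M21 or, where it was missing there, in a further list of gene names.

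Genes were filtered with filterByExpr and scaled by TMM (factors 0.893 to 0.993 in P plate and 0.967 to 0.978 in M plate). The quasi-likelihood F test of edgeR 4.0.16 in R 4.3.3 used all 12 libraries and no term other than the group, leaving 8 residual degrees of freedom, and adjusted over 17700 genes by the Benjamini-Hochberg method. Tests are two-sided, and each SE is the absolute log2 fold change over the square root of F. Floors of 3 counts cover counting error only. Replicates of a group differed by far more than sampling noise (chi-square per gene of 45.7 to 399.7). The script was tested on simulated data.

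The 66 gene lists carry no test of their own: they are described by counts of called members and the median, beside the same over all genes tested. The members and lists were chosen with earlier results of these data known. Named genes follow a rule: the 15 largest rises and the 15 largest falls that were called, without overlap and averaging 20 CPM or more in the higher group, up to 4 called members of each list in its main direction and 2 in the other, the 10 most read genes and a panel of markers. List members named outside that rule, such as Stab1, Vwf, Calca, Gdnf, Hif1a, Igf2, Cacna1c and Mylk, were chosen after their values were seen. Some list members that enter the counts are not reported here by name. Sequences are from RefSeq promoter windows on GRCm38.p6. Alternatives were the 6 compared libraries only, DESeq2 1.42.0, limma-voom (limma 3.58.1), upper quartile scaling, 2 other low-count filters, a replicate block and leaving out each library.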

Additional observations from a re-analysis of the deposited data

How the results depend on the processing

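No called gene among those named changed direction under the alternatives run. Of 299 named genes that were called, 236 were called with the 6 compared libraries only, 294 with DESeq2, 279 with limma-voom, 297 with upper quartile scaling, 289 with no low-count filter, 274 with the stricter filter of 5 CPM in 3 libraries, and 223 to 282 without any 1 library, 214 of them in all 6 such fits. Under the stricter filter 1 of the 299 was tested and not called, and the others not called were filtered out. The count of lower genes fell from 1868 to 1116 with 6 libraries, where 4 residual degrees of freedom are left in place of 8, and to 1187 with no low-count filter. Without any 1 library the counts ranged from 1818 to 2975 higher and from 812 to 2213 lower (largest without P plate replicate 1, smallest without M plate replicate 1). The lower count was 1140 without P plate replicate 3, 879 without M plate replicate 2 and 1178 without M plate replicate 3. DESeq2 called 3003 higher and 2531 lower genes. The share of higher genes among those called was 57.5%, 54.3% with DESeq2, 59.4% with upper quartile scaling and 66.4% with no low-count filter. The medians of several lists changed sign. Without P plate replicate 1 that of the macrophage and myeloid genes went from -0.75 to 0.45 and that of the mesothelial genes from 0.26 to -0.25. With the stricter filter, which tests fewer genes, the interleukin, LIF and TNF families went from -0.96 to 0.44. The medians of the BMP, retinoid, cell cycle and Hox lists were within 0.1 of 0 and changed sign under some alternatives.

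Deviations from the group means of same-numbered libraries correlated at -0.04, 0.08 and 0.09 across genes. Those of differently numbered libraries correlated at -0.13 to 0.05. So few values cannot settle whether the replicate numbers pair the libraries. With the replicate block, 2430 genes were higher and 1658 lower over 12 libraries, and 942 higher and 358 lower over the 6 compared libraries, where 72.5% of the called genes were higher. Of the 299 named genes 281 and 167 were called in these 2 fits. Depth limits the genes near 0 in P plate: Nts had 1 count and Myct1 2 counts over its 3 libraries, and fitted fold changes of such genes depend on the prior count.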

Other observations

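Several genes outside the lists described above were among the largest changes. Adgrg3, an adhesion receptor, was at 0.0547, 0 and 0.0638 CPM in P plate, 4 counts in all, and at 85.6, 130.3 and 95.3 CPM in M plate (log2 fold change 11.25 ± 0.95, edgeR adjusted p = 4.56e-05). Nts, which encodes the peptide neurotensin, had 1 count in P plate and stood at 23.8, 32.2 and 21.8 CPM in M plate (adjusted p = 0.000188), against 2.80 ± 1.55 CPM in the strips (SD, n = 3). Among the falls, Olr1, a receptor for oxidised lipoprotein, was at 205, 90.0 and 142 CPM in P plate and at 4.93, 8.63 and 9.04 CPM in M plate (-4.27 ± 0.44, adjusted p = 0.000106). Tnfrsf23, a decoy receptor of the TNF receptor family, was at 78.3, 137 and 162 CPM and at 5.39, 7.13 and 8.67 CPM (-4.15 ± 0.45, adjusted p = 0.000142). The 3 libraries of each medium did not overlap for any of these 4 genes.

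Of 16 tested skeletal and cardiac muscle genes 4 were higher and 1 lower, with 0 lower without any 1 library other than P plate replicate 2. Of 10 tested adipocyte genes 4 were higher and 0 lower, with 1 lower without any 1 P plate library. Ckm, the creatine kinase of striated muscle, was at 0.137, 0.0922 and 0.0638 CPM in P plate and at 9.26, 4.49 and 7.67 CPM in M plate (log2 fold change 6.13 ± 0.71, edgeR adjusted p = 0.000215), against 147 ± 20.1 CPM in the strips (SD, n = 3). Pparg, the main regulator of adipocytes, which other cells express too, rose from 3.53, 1.75 and 1.15 CPM to 12.2, 9.34 and 8.52 CPM (2.22 ± 0.39, adjusted p = 0.00233). Of 14 tested connexins, the subunits of gap junctions, 6 were higher and 0 lower, and without P plate replicate 1 6 were higher and 4 lower.

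Among the most read genes, Fn1, which encodes fibronectin, was at 15495, 3868 and 12398 CPM in P plate and at 5734, 5804 and 6844 CPM in M plate, and was not called (log2 fold change -0.79 ± 0.42, edgeR adjusted p = 0.193). Saa3, an acute phase protein, was at 6224, 1425 and 2857 CPM in P plate and at 6233, 12841 and 10070.4 CPM in M plate, and was not called (1.47 ± 0.50, adjusted p = 0.0538). It was at 6.23 ± 0.571 CPM in the strips (SD, n = 3).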
